A study of Mus musculus and Homo sapiens with 14 samples.

Results

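The Myc and Max transcription factor network was followed as 8 genes across 14 RNA sequencing libraries. They were Myc, Max, Mxd1, Mxd3, Mxd4, Mxi1, Mnt and Mlx in 10 mouse libraries, and the same 8 genes, written in capitals, in 4 human libraries. The genes were chosen by name and are 8 of 26221 genes with a symbol in the mouse table and 8 of 27945 in the human table. All 8 passed the filter on low counts in every comparison.

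MYC is a basic helix-loop-helix leucine zipper protein that binds DNA as a pair with MAX, and the pair activates genes for cell growth, ribosome production and metabolism at the E-box CACGTG. MXD1, MXD3, MXD4, MXI1 and MNT also pair with MAX, compete for the same sites and recruit SIN3 and histone deacetylase repressors. MLX is a MAX-like protein that pairs with MLXIP (MondoA) and MLXIPL (ChREBP), which sense glucose metabolites, and with some of the MXD proteins. In the B lineage, MYC marks activated and dividing cells, BLIMP-1 represses it as plasma cells mature, and mouse plasmacytomas commonly carry translocations that join Myc to an immunoglobulin locus. Whether the lines used here carry one was not tested.

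The study compared cells in which IRF4, a transcription factor that plasma cells need, was targeted with cells that kept it. MPC-11, a mouse plasmacytoma line, and MM.1S, a human myeloma line, were infected with Cas9 plus an Irf4 guide RNA or an empty vector, given doxycycline and sorted on day 3 (2 libraries in each of the 4 groups). Splenic plasma cells of donor origin came from mice given Irf4 flox/- or Irf4 flox/+ bone marrow (C57BL/6) together with uMT marrow, which makes no mature B cells. Both genotypes carried a floxed allele and received tamoxifen on days 1, 2, 7 and 8, with harvest on day 14, and the labels name no Cre driver (2 libraries each). Bone marrow plasma cells and splenic follicular B cells of C57BL/6 mice had 1 library each. The 2 flox/+ count columns share a name and are called a and b. The labels do not say whether libraries of a group came from separate cultures or animals, so p-values measure only the spread between these samples, which may be technical.

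Library totals ran from 18738283 to 27003585 counts in mouse and from 19317115 to 21572315 in human. Irf4 itself was 171 and 89.1 CPM (reads per gene relative to library size, after TMM scaling) in MPC-11 with the guide and 295 and 302 CPM with the empty vector (log2 fold change -1.19 ± 0.37, SE; edgeR adjusted p = 0.592). IRF4 was 142 and 191 CPM in MM.1S with the guide and 489 and 434 CPM with the empty vector (-1.47 ± 0.22, adjusted p = 0.199). By DESeq2 the adjusted p was 0.0821 for Irf4 in MPC-11 and 4.44e-08 for IRF4 in MM.1S. In splenic plasma cells, Irf4 was 133 and 159 CPM in flox/- and 180.1 and 87.2 CPM in flox/+, so the groups overlapped, and a count over the whole gene includes exons outside a floxed segment and so does not check the deletion. The flox/- splenic libraries also had higher sums of markers of several other cell types. Summed over 8 macrophage and monocyte markers they had 7091 and 599 CPM, against 486 and 182 CPM in flox/+, and over 6 T cell markers 111 and 222 CPM, against 9.68 and 24.6 CPM. Summed over 6 B cell markers they had 359 and 580 CPM, against 221 and 240 CPM in flox/+, and over 6 NK cell markers 47.5 and 131 CPM, against 13.6 and 22 CPM. Follicular B cells had 4382 CPM of the B cell markers. No macrophage marker was at 0 in the 4 splenic plasma cell libraries. In them Cd8a was at 0 in 3, Ncr1 was at 0 in all 4, and Pax5 and Cr2 were at 0 in flox/+ library b. The MPC-11 libraries had 934 to 1305 CPM of the macrophage and monocyte sum with 7 of its 8 markers at 0. There it came from Cd68 alone, so the sum is not specific to macrophages. Immunoglobulin genes took 58.8% and 55.4% of counts in flox/-, against 75.6% and 77.2% in flox/+. Plasma cell markers (6 genes) summed to 34496 and 31670 CPM in flox/- and 75750 and 95524 CPM in flox/+, against 226 CPM in follicular B cells. The part of these differences in the splenic results was not tested. In bulk samples, fewer cells of a type and less RNA per cell cannot be told apart.

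The E-box that links these proteins also lies in promoters of the network itself, and these windows are shown for that reason. RefSeq promoters (GRCm38.p6, from 250 bases before a transcript start to 50 after it) were matched by symbol for 7 members: Max, Mxd1, Mxd3, Mxd4, Mxi1, Mnt and Mlx. The motif CACGTG, which reads the same on both strands, was found in 4 of these 7, Max, Mxd4, Mnt and Mlx, and in 8.09% of 27025 genes in the table (2187 genes). It was not in the windows of Mxd1, Mxd3 and Mxi1. Each 30-base window follows 5′ to 3′ on the gene's strand with the motif in capitals.
Max, chr12:76962234-76962263, minus strand, motif starting at position -3: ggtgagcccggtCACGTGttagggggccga
Mxd4, chr5:34187912-34187941, minus strand, motif starting at position -219: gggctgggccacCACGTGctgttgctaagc
Mnt, chr11:74830789-74830818, plus strand, motif starting at position -123: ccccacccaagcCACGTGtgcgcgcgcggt
Mlx, chr11:101087238-101087267, plus strand, motif starting at position -40: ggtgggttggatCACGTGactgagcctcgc
Positions count from the start of the transcript whose promoter was used. For Max, Mnt and Mlx that start is not the outer end of the gene coordinates given below. A match describes the letters and is not evidence of binding, and no binding data were used. The same motif was in 24.0% of the 25 ribosome biogenesis genes and 32.1% of the 28 growth and metabolism genes that had a promoter in the table. It was in 6.67% of the 15 proliferation genes, 10% of the 10 MYC coactivators and 0% of the 4 corepressor and 8 protein turnover genes.

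Of the 8 genes, Myc had the widest range of levels over the mouse groups. It was 1771 and 1443 CPM in MPC-11 with the guide and 839.6 and 2025 CPM in MPC-11 with the empty vector. Splenic plasma cells had 24.7 and 33.6 CPM in flox/- and 10.4 and 8.83 CPM in flox/+. Bone marrow plasma cells had 15.1 CPM (95% exact Poisson interval 12.9 to 17.5) and follicular B cells 41.4 CPM (39.4 to 43.5), intervals that cover counting error only. From high to low the group means ran MPC-11 guide, MPC-11 empty vector, follicular B cells, flox/- plasma cells, marrow plasma cells and flox/+ plasma cells. The 2 MPC-11 groups overlapped, and no test was possible for the groups of 1 library. The lowest MPC-11 library lay far above every primary library. The gene lies at chr15:61985341-61990361 (mm10, RefSeq).

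The repressive partners followed other orders. Mxd4 (chr5:34176580-34187710) was 68.0 and 63.9 CPM in flox/- and 91.9 and 137 CPM in flox/+, and 65.4 CPM in marrow plasma cells. Mxd4 was 10.1 and 21.2 CPM in MPC-11 with the guide, 23.7 and 13.4 CPM with the empty vector and 17.1 CPM in follicular B cells. On these TMM-scaled values all 5 plasma cell libraries from mice were above the 5 other mouse libraries. Mxd1 (chr6:86647044-86669234) split the same libraries in the same way, with 28.9 and 46.7 CPM in flox/-, 28.4 and 25 CPM in flox/+ and 39.8 CPM in marrow plasma cells. In MPC-11, Mxd1 was 16.5 and 5.47 CPM with the guide and 10.7 and 4.59 CPM with the empty vector, and follicular B cells had 8.27 CPM. TMM factors ran from 0.432 to 0.925 in the 5 plasma cell libraries from mice and from 1.446 to 1.995 in the others. Before scaling, Mxd1 had 308 and 291 counts in flox/+, against 326 in follicular B cells and 575 in MPC-11 guide library 1. The Mxd1 split thus depends on the scaling. So does the size of the Mxd4 gap, with 721 counts in marrow plasma cells and 673 in follicular B cells.

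Mxi1 (chr19:53310128-53373293), a MYC antagonist, had its highest levels in the line that also had the most Myc. It was 198 and 179.7 CPM in MPC-11 with the guide and 135 and 141 CPM with the empty vector. Mxi1 was 14.9 and 27.1 CPM in flox/-, 39.9 and 53.6 CPM in flox/+, 42.9 CPM in marrow plasma cells and 7.61 CPM in follicular B cells. No group of 2 libraries overlapped another of these groups for Mxi1. Single pairs of groups separated often. Of all genes, 66.5% did between MPC-11 with the empty vector and flox/+, 44.1% between flox/- and flox/+, and 33.5% between the MPC-11 groups. The share separated in every pair was not computed. Mxd3 (chr13:55325170-55329900), known from dividing cells, was low throughout, at 3.95 and 8.33 CPM in MPC-11 with the guide and 5.21 and 4.25 CPM with the empty vector. It was 0.0993 and 2.05 CPM in flox/-, and in flox/+ 2.40 CPM in library a and no count in library b, where a count of 0 allows up to 0.257 CPM (3 counts). Marrow plasma cells had 4.54 CPM of Mxd3 and follicular B cells 1.09 CPM.

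Max, Mnt and Mlx varied least. Max (chr12:76937269-76962323), the shared partner, was 27 and 20.9 CPM in MPC-11 with the guide and 11.5 and 20.2 CPM with the empty vector. Max was 10.8 and 6.39 CPM in flox/-, 12.6 and 19.6 CPM in flox/+, 16.3 CPM in marrow plasma cells and 18.3 CPM in follicular B cells. Thus Max spanned 1.5 log2 units over the 6 mouse group means, against 7.37 for Myc. Mnt (chr11:74830806-74845725), a broadly expressed MAX partner, ranged from 1.2 to 9.53 CPM over the 10 libraries. Mlx (chr11:101086707-101092207) ranged from 30.3 to 81.9 CPM, and the MPC-11 empty vector libraries alone had 81.8 and 30.3 CPM. Reads at the ends of Mxd3 and Mlx can also come from Prelid1 (103 shared bases) and Psmc3ip (67 shared bases), since the library kit does not mark strand.

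**Figure D1:**
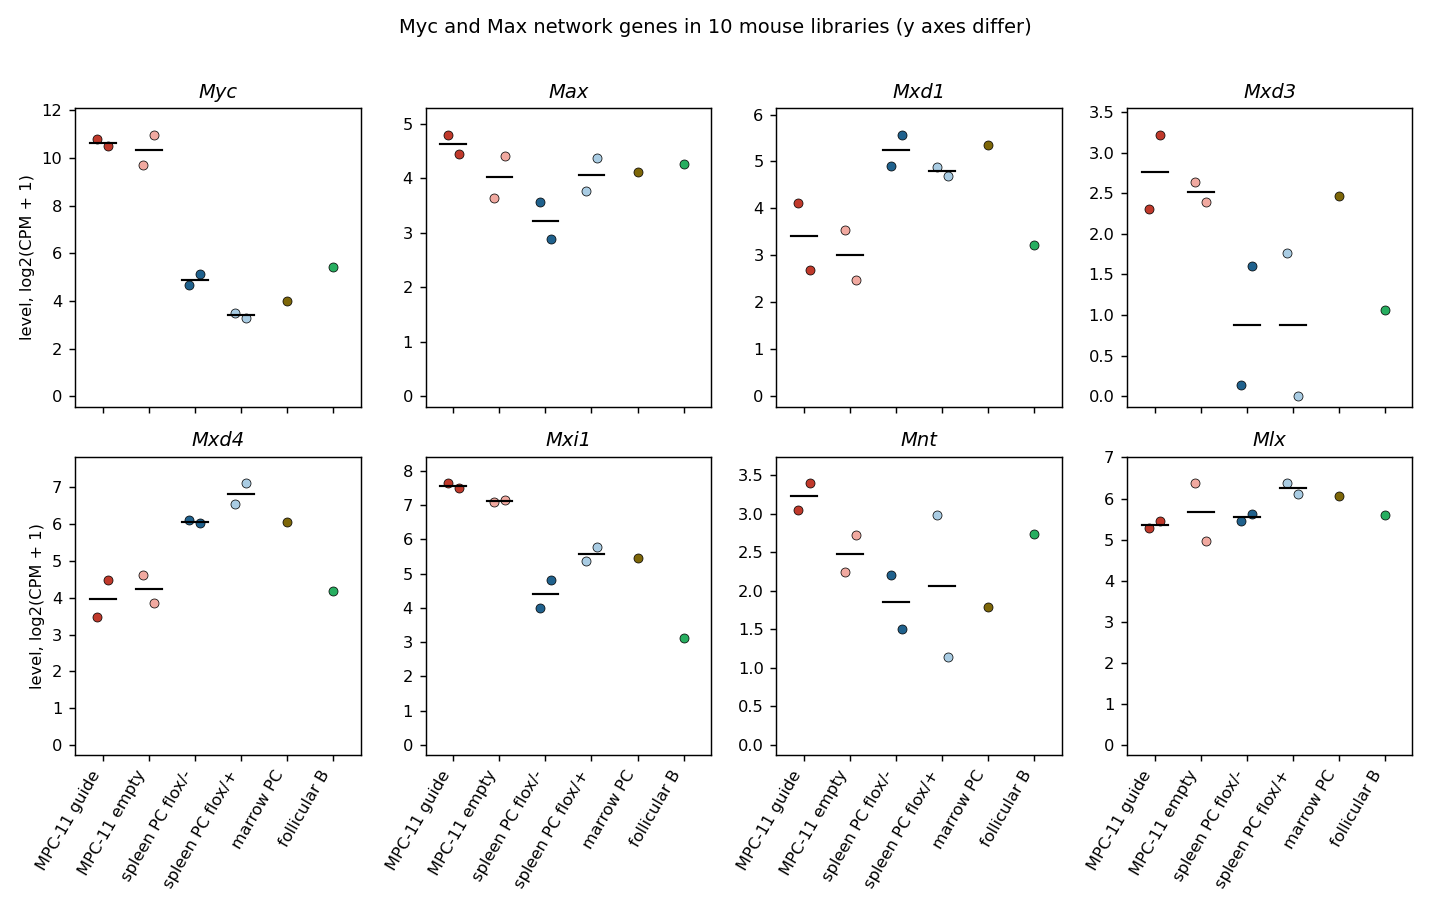
Levels of the 8 genes in the 10 mouse libraries as log2 of TMM-scaled CPM plus 1, with a point for each library and a bar at the group mean; y axes differ between panels. Myc lies between 839.6 and 2025 CPM in MPC-11 and between 8.83 and 41.4 CPM in primary cells. After this scaling Mxd4 and Mxd1 are highest in plasma cells taken from mice, a split that for Mxd1 depends on the scaling.

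Compared with flox/+ splenic plasma cells, the MPC-11 line with the empty vector had 152 times as much Myc, 2.97 times as much Mxi1 and 0.161 times as much Mxd4. This comparison sets a tumour line against sorted cells, both with Irf4 present, and line, tumour state, genotype, tamoxifen and culture differ together. It called 27.7% of 11465 genes, 12% higher and 15.6% lower, and of the 8 members 2 were called higher and 1 lower. The log2 fold change of Myc was 7.25 ± 0.70 (SE, n = 2 each; edgeR quasi-likelihood test with Benjamini-Hochberg adjustment, adjusted p = 0.000595). Mxd4 fell by 2.63 (-2.63 ± 0.48, adjusted p = 0.00794) and Mxi1 rose by 1.57 ± 0.40 (adjusted p = 0.0248).

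The other 5 members did not pass. Mxd1 was -1.80 ± 0.63 (adjusted p = 0.0736, and 0.0254 by DESeq2, which called 32.5% of genes), with groups that did not overlap, as in 33.5% of all genes in that direction and 66.5% in either. Mxd3 was 2.03 ± 1.6, Max -0.01 ± 0.62 with a 95% interval from -1.46 to 1.44, Mnt 0.25 ± 1.03 and Mlx -0.42 ± 0.51. Mxi1 lost its call whenever any of the 4 libraries was left out (adjusted p from 0.0541 to 0.107, log2 fold change from 1.34 to 1.86), while Myc and Mxd4 kept theirs. Mxd3 was called without flox/+ library a (adjusted p = 0.0173), against the lone library with no count. Without TMM scaling, by library size alone, the median of all genes moved to 1.86 from -0.02, and Mxd4 was then -0.77 (adjusted p = 0.157), Max 1.96 (adjusted p = 0.0495) and Myc 9.20.

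The known targets of MYC in ribosome production were higher in the line. Of 31 ribosome biogenesis genes, 21 rose and none fell, beside 12% and 15.6% of all genes, with a list median of 2.31 on the log2 scale against -0.02 for all genes. Npm1, the nucleolar chaperone nucleophosmin, was 297 and 275 CPM in MPC-11 with the empty vector and 15.8 and 20.1 CPM in flox/+ (4.01 ± 0.43, adjusted p = 0.00092). Rrp12, a ribosome assembly factor, was 50.1 and 123 CPM against 7.37 and 1.80 CPM (4.29 ± 0.81, adjusted p = 0.00884). Ncl, nucleolin, was 343 and 543 CPM against 76.9 and 105 CPM (2.30 ± 0.46). The other 18 genes that rose were Nop56, Nop58, Nop2, Nop16, Dkc1, Gnl3, Wdr12, Wdr43, Wdr74, Rrs1, Mybbp1a, Nolc1, Ppan, Rrp9, Rcl1, Bysl, Nip7 and Grwd1. Their log2 fold changes ran from 1.58 for Nip7 to 3.87 for Wdr12. Leaving out 1 library left 17 to 20 of the 31 called, all higher.

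Growth and metabolism targets were also mostly higher in the line. Of 33 genes, 14 rose and 1 fell, with a median of 1.89. Hspd1, the mitochondrial chaperone, was 174 and 293 CPM in MPC-11 with the empty vector and 3.78 and 10.7 CPM in flox/+ (5.01 ± 0.68, adjusted p = 0.0026). Ldha, lactate dehydrogenase A, was 2959 and 1601 CPM against 147 and 173 CPM (3.83 ± 0.54, adjusted p = 0.00291). The other genes that rose were Pkm, Eno1, Shmt1, Ppat, Gart, Slc19a1, Tfrc, Hspe1, Ccnd2, Eif4a1, Pa2g4 and Apex1. Slc3a2, the heavy chain of an amino acid transporter, fell, with 268 and 314 CPM against 1414 and 1528 CPM (-2.32 ± 0.44, adjusted p = 0.00884). Odc1, ornithine decarboxylase and a classic MYC target, was not called, with 29.2 and 24.8 CPM in the line and 74.4 and 46.4 CPM in flox/+. Without MPC-11 empty vector library 1 the number that rose was 9, and without library 2 it was 10 with a median of 1.03. By library size alone 29 rose and none fell.

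Proliferation genes were mostly higher in the line, and single cofactors moved either way. Of 16 proliferation genes 12 rose (Top2a, Ccna2, Ccnb1, Cdk1, Plk1, Bub1, Bub1b, Mcm3, Mcm5, Mcm7, Cdc20 and Kif11) and none fell, with a median of 3.34, and 8 rose when either MPC-11 library was left out. The call of Mcm7 lay at the threshold, with an edgeR adjusted p that rounds to 0.05. Ccna2 was not called by DESeq2 (adjusted p = 0.14) or by limma on log2 FPKM (0.106). Kif11, a mitotic kinesin, had no count in flox/+ and was at least 408-fold higher in the line, taking 3 counts over the group as the floor. Mki67, the usual proliferation marker, was not called, with 16.5 and 55.5 CPM in the line and 14.7 and 12.7 CPM in flox/+. Among 11 MYC coactivators, Kat2a (GCN5) rose by 1.72 ± 0.46 (adjusted p = 0.0311), a call lost by voom, on log2 FPKM and when any of the 4 libraries was left out (adjusted p from 0.0522 to 0.165). Hdac1, a histone deacetylase recruited by MXD and MNT proteins, fell (-2.93 ± 0.59, adjusted p = 0.0109), and was not called without either MPC-11 library (0.0818 and 0.0612) or by library size alone (-1.05). Of 9 genes for MYC protein turnover, Aurka (6.76 ± 0.72) and Skp2 (2.64 ± 0.76), which encode a stabilising kinase and a ubiquitin ligase subunit, rose. The call of Skp2 was lost by voom, on log2 FPKM, without flox/+ library b and without either MPC-11 library (adjusted p up to 0.296), and that of Aurka was kept under these alternatives.

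Genes that MYC is known to repress moved in both directions. Cdkn1a (p21) was 147 and 121 CPM in MPC-11 with the empty vector and 21.7 and 27.1 CPM in flox/+ (2.46 ± 0.41, adjusted p = 0.0055), so it rose, as did Cdkn2b (3.40 ± 0.61) and Gadd45b (1.59 ± 0.46). Gadd45a and Ndrg2 had no count in the line and fell, at least 81.1-fold and at least 38.1-fold. Both calls were lost without either MPC-11 library (adjusted p 0.0892 and 0.0999 for Gadd45a, 0.212 and 0.236 for Ndrg2), and that of Ndrg2 also without either flox/+ library. Cdkn2b was not called without MPC-11 library 1 (0.0698), nor Gadd45b without that library (0.204) or without either flox/+ library. Of the 2 targets of the MLX and MondoA pair, Arrdc4 was too low to test and Txnip fell (-1.95 ± 0.46, adjusted p = 0.0198, and -0.14 by library size alone). Txnip was not called without flox/+ library a (-1.42, adjusted p = 0.0738), without either MPC-11 library (0.0847 and 0.121) or on log2 FPKM (0.0637). Of the other network genes, 2 of 5 could be tested and neither was called, and the smallest p was that of Mlxip (0.17 ± 0.67, adjusted p = 0.887).

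Of 7 regulators of B lineage identity, 6 could be tested in this comparison and 2 fell. Ikzf3 (Aiolos), which restrains Myc in mouse B cell precursors, was 1.87 and 8.18 CPM in MPC-11 with the empty vector and 200.5 and 227 CPM in flox/+ (-5.37 ± 0.79, adjusted p = 0.00348). Bcl6, the germinal centre repressor, had no count in the line and was at least 50.8-fold lower, a call lost without either MPC-11 library (adjusted p = 0.181 and 0.196). In flox/- against flox/+ plasma cells none of the 7 was called by edgeR, and the smallest p was that of Xbp1, the secretory regulator, with 1978 and 1761 CPM in flox/- and 4326 and 5956 CPM in flox/+ (-1.46 ± 0.35, adjusted p = 0.275, and 0.00253 by DESeq2).

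The balance of Myc against its antagonists was set out per gene length, from the authors' deposited log2 FPKM turned to a linear scale. In MPC-11, Myc FPKM divided by the summed FPKM of Mxd1, Mxd3, Mxd4, Mxi1 and Mnt was 16.2 and 10.7 with the guide and 6.29 and 28.6 with the empty vector. The ratio was 0.148 and 0.197 in flox/- plasma cells and 0.0474 and 0.0382 in flox/+ plasma cells. It was 0.0867 in marrow plasma cells and 0.842 in follicular B cells. In MM.1S the ratio was 1.89 and 2.34 with the guide and 1.52 and 3.21 with the empty vector. On these values Myc exceeded the sum in all 8 line libraries and lay below it in the 6 primary libraries. With CPM divided by GENCODE exon length in place of the deposited values, the ratio was 0.602 and 0.639 in flox/-, 0.165 and 0.117 in flox/+, 0.251 in marrow plasma cells and 2.55 in follicular B cells, so the last lay above 1. In MPC-11 it was then 18.2 and 15.1 with the guide and 11.4 and 28.8 with the empty vector.

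The antagonist with the highest level per length differed between sources. Mxd4 made up 70.5% to 86.8% of the sum in the 6 primary libraries, and Mxi1 43.0% to 64.4% in the 4 MPC-11 libraries. By exon length the same genes were highest with other shares: Mxd4 had 53% and 38.9% in flox/-, 46.7% and 58.1% in flox/+, 34.9% in marrow plasma cells and 33.6% in follicular B cells, and Mxi1 had 73% to 81.1% in MPC-11. In MM.1S it was MXD4, with 62.0% and 77.8% in guide libraries and 50% in both empty vector libraries. Max was 9.40 and 5.58 FPKM in flox/- and 12.8 and 21.3 FPKM in flox/+, so Myc stood at 2.02 and 4.89 times Max in flox/- and at 0.694 and 0.423 times Max in flox/+. In MPC-11 that quotient was 65.0 and 62.9 with the guide and 49.9 and 127 with the empty vector. With 2 libraries in each group an exact permutation test cannot reach the threshold, and no other test of these ratios was run. The flox/- libraries' higher sums of macrophage, T cell, B cell and NK cell markers stand beside their ratios, and the part of those transcripts was not tested.

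**Figure D2:**
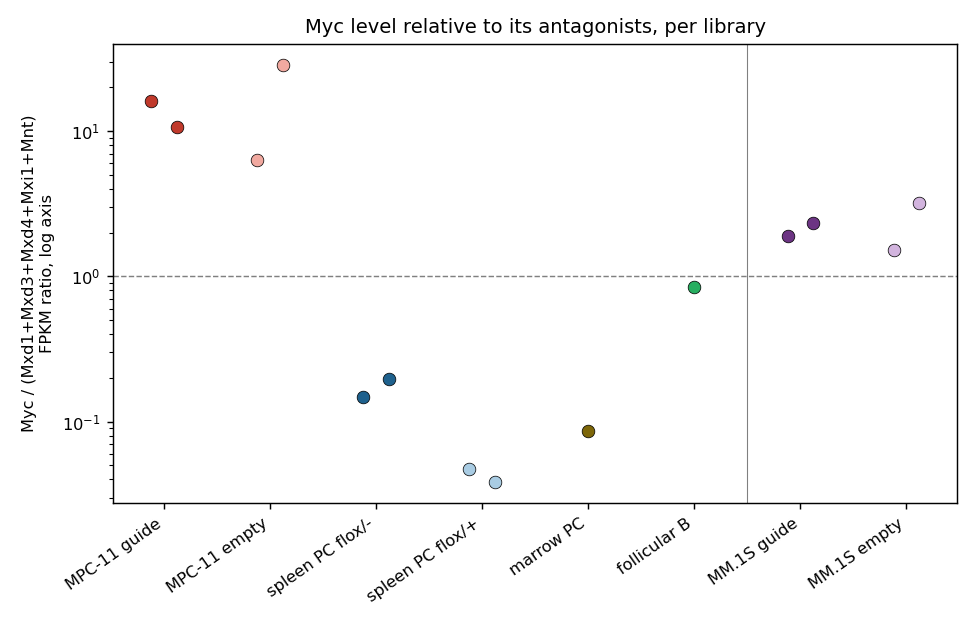
Ratio of Myc to the summed level of its 5 antagonists, each per gene length from the deposited values, on a log axis, with a point for each of the 14 libraries. The 8 cell line libraries lie above 1 and the 6 primary libraries below it, with flox/- plasma cells (0.148 and 0.197) above flox/+ plasma cells (0.0474 and 0.0382).

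Irf4 flox/- splenic plasma cells were set against flox/+ cells to ask what IRF4 loss changes, and no member was called by edgeR. Myc was 29.2 ± 6.30 CPM in flox/- and 9.62 ± 1.12 CPM in flox/+ (SD, n = 2 each), 3.03 times as high, with groups that did not overlap. Its log2 fold change of 1.6 ± 0.45 (95% interval 0.47 to 2.72) had an unadjusted p of 0.0139 and an adjusted p of 0.283 by edgeR, and 0.0613 by DESeq2. It ran from 1.35 to 1.81 when 1 library was left out. B cell markers also summed higher in both flox/- libraries, follicular B cells had more Myc than any splenic plasma cell library, and the part of these transcripts was not tested. Max and 3 of its partners and relatives were lower in both flox/- libraries than in both flox/+ libraries. These were Mxi1 (-1.15 ± 0.45, adjusted p = 0.383), Max (-0.90 ± 0.58, 0.663), Mxd4 (-0.79 ± 0.33, 0.417) and Mlx (-0.72 ± 0.32, 0.462).

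The counts of members stand beside a background that was itself large. Edge-to-edge separation was seen for 5 of 8 members and for 44.1% of all 11887 genes (25.7% higher, 18.3% lower). edgeR called 0% of genes, 12.5% had an unadjusted p under 0.05, as did Myc and Mxi1 among the members, and DESeq2 called 650 genes (5.26%) and no member. Mxd1 (0.50 ± 0.41), Mnt (-0.58 ± 1.13) and Mxd3 (-0.17 ± 2.17) overlapped between genotypes, and for Mxd3 the interval from -5.60 to 5.26 left the direction unresolved. By library size alone the median of all genes moved to 0.98 from 0.09 and Mxd4, Mlx, Mnt and Mxd3 changed sign, while Myc was 2.50.

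No gene of the target lists was called in this comparison by edgeR. DESeq2 called 2 of 16 proliferation genes and 1 of the 2 targets of the MLX and MondoA pair, all higher. Ribosome biogenesis genes had a median of 0.16 and growth and metabolism genes of 0.06, against 0.09 for all genes. Proliferation genes had a median of 0.98, with 12 of 16 above 0, and of 0.35 without flox/+ library a (0.32 for all genes) and 1.43 without library b. This stands beside the higher T cell, B cell, NK cell and macrophage marker sums of the flox/- libraries, whose part was not tested. The smallest p in each list belonged to Las1l (-0.90 ± 0.35), Ccnd2 (1.28 ± 0.38) and Mcm5, a replication helicase subunit. Mcm5 was 60.3 and 66.3 CPM in flox/- and 18.2 and 11.8 CPM in flox/+ (2.07 ± 0.40, adjusted p = 0.275, and 0.00101 by DESeq2). Among other lists they were Mlxip (0.98 ± 0.55), Cdk9 (0.60 ± 0.31), Aurka (2.10 ± 1.18), Gadd45a (1.66 ± 0.65) and Arrdc4 (4.43 ± 1.63), with adjusted p from edgeR between 0.356 and 0.598. Arrdc4 rested on low levels, 14.0 and 4.90 CPM in flox/- against no count and 0.858 CPM in flox/+.

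Targeting of Irf4 in MPC-11 left all 8 members with an edgeR adjusted p of 1. Myc averaged 1607 ± 232 CPM with the guide and 1432 ± 838 CPM with the empty vector (SD, n = 2 each), and the empty vector libraries lay on both sides of the guide libraries. Its log2 fold change was 0.16 ± 0.44 with a 95% interval from -0.87 to 1.19. Without empty vector library 1 it was -0.35 and without library 2 0.99. Max (0.59 ± 0.44), Mxi1 (0.46 ± 0.28) and Mnt (0.85 ± 0.59) were higher in both guide libraries than in both empty vector libraries, beside 16.9% of all 10670 genes (16.5% were lower and 33.5% separated either way). Mxd1 (0.54 ± 0.70), Mxd3 (0.39 ± 0.67), Mxd4 (-0.22 ± 0.52) and Mlx (-0.47 ± 0.47) overlapped. edgeR called 2 genes of the whole table (0.0187%) and 6.04% had an unadjusted p under 0.05, with no member among them, and DESeq2 called 169 genes (1.54%) and no member.

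The target lists in MPC-11 had no call by edgeR with the filter on low counts. Ribosome biogenesis genes had a median of 0.14, or -0.07 by library size alone (smallest p for Tcof1, 0.70 ± 0.31) and growth genes of -0.04 (E2f2, 1.03 ± 0.43). Proliferation genes had a median of -0.81 against -0.02 for all genes, with 14 of 16 below 0. Cdc20, an activator of the anaphase promoting complex, was 87.6 and 115 CPM with the guide and 236 and 216 CPM with the empty vector (-1.15 ± 0.30, adjusted p = 0.528, and 0.0206 by DESeq2). Txnip, the glucose-responsive target of MLX and MondoA, was 339.6 and 229 CPM with the guide and 87.6 and 62.6 CPM with the empty vector. Its log2 fold change of 1.93 ± 0.34 had an edgeR adjusted p of 0.289 and a DESeq2 adjusted p of 1.03e-05. Txnip was also called higher by edgeR without the filter on low counts. Cdkn1a was 232 and 234 CPM with the guide and 147 and 121 CPM with the empty vector (0.81 ± 0.28, adjusted p = 0.657). The smallest p of the remaining lists belonged to Mlxip (0.58 ± 0.49), Ruvbl2 (-0.46 ± 0.29), Sin3b (-0.38 ± 0.32) and Skp2 (-1.41 ± 0.62), all with adjusted p of 0.846 or more.

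In human MM.1S cells no member was called by edgeR. MYC was 368 and 421 CPM with the guide and 243 and 369 CPM with the empty vector (0.37 ± 0.24, adjusted p = 0.737), and the groups overlapped narrowly. MXD4 was 289 and 333 CPM with the guide and 194 and 136 CPM with the empty vector (0.91 ± 0.24, unadjusted p = 0.00688, adjusted p = 0.31), and MXD3 was 19.3 and 19.2 CPM against 39.0 and 38 CPM (-1 ± 0.25, unadjusted p = 0.00608, adjusted p = 0.31). DESeq2 called MXD4 (0.0153) and not MXD3 (0.0509). MXD4 was also called by edgeR without empty vector library 1 (1.19, adjusted p = 0.0132) and without the filter on low counts (adjusted p = 0.0427).

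None of the other human members had an unadjusted p under 0.05. MAX was 35.2 and 35.5 CPM with the guide and 29.0 and 28.2 CPM with the empty vector (0.31 ± 0.24), and MXD1 was 5.33 and 5.18 CPM against 7.38 and 7.57 CPM (-0.51 ± 0.47). MXI1 was 92.5 and 36.9 CPM with the guide and 78.1 and 34.9 CPM with the empty vector (0.19 ± 0.52, without a term for replicate number). Replicate 1 was thus the high library and replicate 2 the low library in both groups. MLX was 99.7 and 94.2 CPM against 106 and 89.9 CPM (-0.01 ± 0.21, 95% interval -0.51 to 0.49). MNT was below 1 CPM in all 4 libraries. Separated groups were seen for MAX and MXD4 upward, beside 22.4% of all 12696 genes, and for MXD1 and MXD3 downward, beside 18.9%, or 41.3% either way. edgeR called 1 gene of the table (0.00788%), 10% had an unadjusted p under 0.05 and DESeq2 called 366 genes (2.75%).

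**Figure D3:**
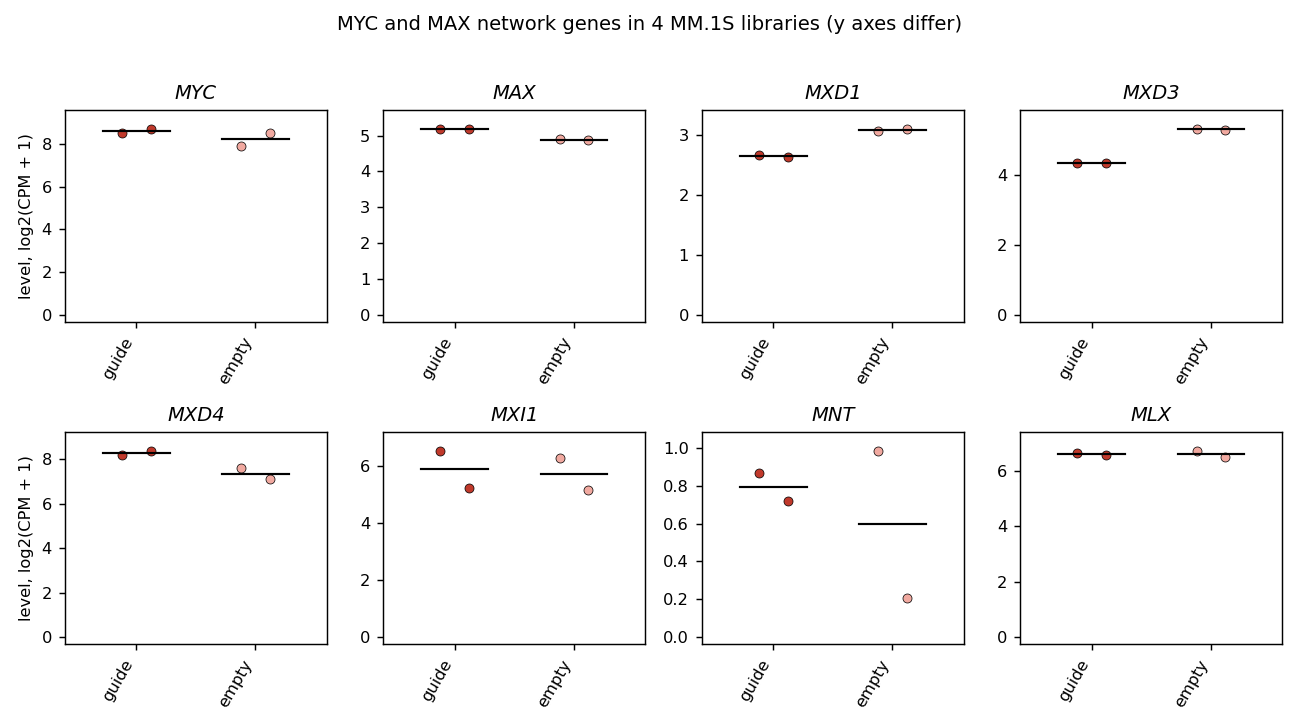
Levels of the 8 genes in the 4 MM.1S libraries as log2 of TMM-scaled CPM plus 1, with guide libraries left of empty vector libraries, a point for each library and a bar at the group mean; y axes differ between panels. MXD4 is higher in both guide libraries (289 and 333 CPM) than in both empty vector libraries (194 and 136 CPM), and MXD3 is lower (19.3 and 19.2 against 39.0 and 38 CPM).

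Target genes in MM.1S were mostly on the lower side with the guide. The main edgeR fit, on all 4 libraries with the filter and no term for replicate number, had no call among them. Growth and metabolism genes had a median of -0.32 against 0.01 for all genes, with 26 of 32 below 0. DESeq2 called 6 of them lower, edgeR without the filter 4 and edgeR with replicate number in the fit 1. CCND2, cyclin D2, was 571 and 659.5 CPM with the guide and 1104 and 1314 CPM with the empty vector (-0.97 ± 0.18, edgeR adjusted p = 0.22, and 0.000125 by DESeq2). Proliferation genes also had a median of -0.32, with 15 of 16 below 0. Of them 4 were called lower by DESeq2, by edgeR without the filter and by edgeR with replicate number in the fit. RRM2, a ribonucleotide reductase subunit, was 178 and 235 CPM with the guide and 449.9 and 775 CPM with the empty vector (-1.57 ± 0.30, adjusted p = 0.22, and 2.48e-05 by DESeq2). Ribosome biogenesis genes had a median of -0.11 (UTP20, 1.07 ± 0.38). Without empty vector library 2 the medians were -0.06 for growth, -0.09 for proliferation and 0.22 for ribosome biogenesis genes, against 0.02 for all genes, and without library 1 they were -0.46, -0.57 and -0.37, against 0.07. Without guide library 1 the ribosome median was 0.11, and without guide library 2 the growth median was -0.51. TXNIP was 236 and 172 CPM with the guide and 142 and 123 CPM with the empty vector (0.62 ± 0.23, adjusted p = 0.437). The smallest p of the remaining lists belonged to MGA (0.47 ± 0.25), EP400 (-2.12 ± 0.92), HDAC1 (0.63 ± 0.20), CIP2A (-0.61 ± 0.36) and GADD45A (-0.63 ± 0.27), none of them called.

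**Figure D4:**
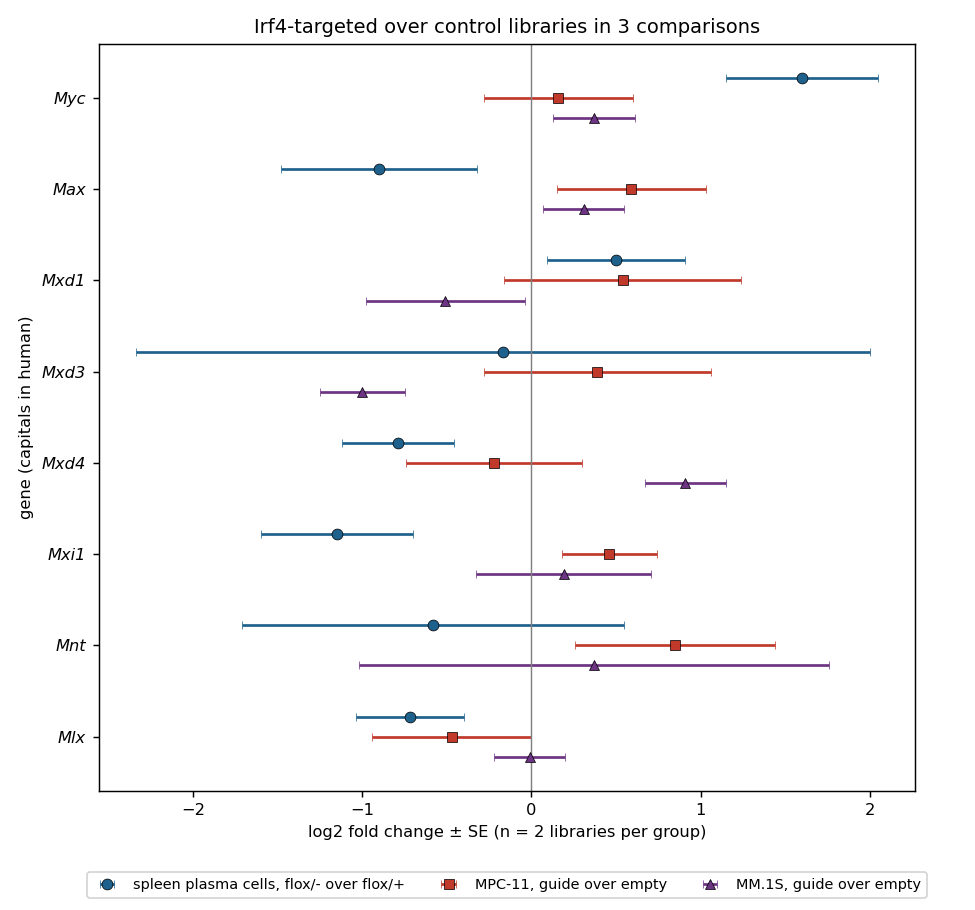
Log2 fold changes with standard errors of the 8 genes in the 3 comparisons of Irf4-targeted with control libraries, 2 libraries in each group. Myc is at 1.6 in splenic plasma cells, 0.16 in MPC-11 and 0.37 in MM.1S, Mxi1 and Max lie below 0 in splenic plasma cells and above 0 in both lines, and no point has an edgeR adjusted p under 0.05.

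The difference between the effect in MPC-11 and in splenic plasma cells was tested for each member in 1 fit of 8 libraries, and none of 12993 genes was called (0%), against 6.21% with an unadjusted p under 0.05 and 196 genes (1.61%) by DESeq2. For Mxi1 the difference of log2 fold changes was 1.61 ± 0.50 (95% interval 0.46 to 2.75, unadjusted p = 0.012, adjusted p = 0.599). It was -1.43 ± 0.64 for Myc (adjusted p = 0.818) and 1.5 ± 0.73 for Max (adjusted p = 0.868). For Mxd1, Mxd3, Mxd4, Mnt and Mlx it was 0.03 ± 0.89, 0.53 ± 2.42, 0.56 ± 0.64, 1.42 ± 1.31 and 0.23 ± 0.64. The comparison of MPC-11 with flox/+ cells shares its control libraries with both single comparisons.

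Marrow plasma cells and follicular B cells, with a library each, stand for a mature plasma cell and a resting B cell. Myc was 15.1 CPM in marrow plasma cells and 41.4 CPM in follicular B cells, and Mnt was 2.45 CPM (1.62 to 3.57) and 5.68 CPM (4.96 to 6.48). Mxi1 was 42.9 CPM (39.2 to 47.0) in marrow plasma cells and 7.61 CPM (6.77 to 8.52) in follicular B cells, and Mxd1 and Mxd4 were also higher in the marrow plasma cells. The marrow and B cell libraries had TMM factors of 0.511 and 1.871, with immunoglobulin at 72% and 3.25% of counts. Before scaling, counts in marrow and B cells were 473 and 300 for Mxi1, 438 and 326 for Mxd1 and 721 and 673 for Mxd4. They were 166 and 1633 for Myc and 27 and 224 for Mnt. The size of these differences thus depends on the scaling. Neutrophil markers (5 genes) summed to 464 CPM in the marrow library and 9.54 CPM in the B cell library, and their part in these values was not tested. There is no replicate check of these differences.

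The genes with mouse profiles most like Myc were found by the root mean square difference of log2 levels, each centred over the 6 mouse groups, among 14510 genes. The nearest were Dnph1 (0.35), C1qtnf6 (0.45), Eno3 (0.45), G730013B05Rik (0.51) and Abcd2 (0.53), beside a range of 7.37 for Myc itself. In flox/+ and marrow plasma cells alike, Dnph1 was at -2.92, C1qtnf6 at -2.62 and G730013B05Rik at -2.23, the last also in flox/-. The prior count of 2 gives groups with no count such a common value, so this floor may set part of the likeness. The nearest to the other members were Orai1 to Max (0.17), 0610040B10Rik to Mxd1 (0.18), Gm6981 to Mxd3 (0.33), Cyb5a to Mxd4 (0.19), Gm3141 to Mxi1 (0.19), Papolg to Mnt (0.09) and Tmem216 to Mlx (0.07). These values describe 6 group means of 10 libraries and have no test.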

How the data were processed

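Libraries were grouped by the labels, and the 8 genes, lists and tests were chosen with earlier results of these data known. The authors deposited counts, whole reads per gene without normalization (27179 mouse and 28395 human entries), and log2 FPKM per library, which carry an offset that the sources used here do not give. Per the submitters' processing notes, the tools included featureCounts, Subread 1.6.0 and limma, and the builds were mm10 and hg38, with no role or order given. The 958 mouse and 450 human entries lacking a symbol took up to 0.306% of a library and were left out.

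For each comparison edgeR 4.0.16 (R 4.3.3) was run on the 4 libraries concerned (TMM scaling, filterByExpr with a minimum count of 10, quasi-likelihood F test, Benjamini-Hochberg adjustment over all genes, threshold 0.05). The difference of effects used 8 libraries. Folds are from these fits, and CPM were scaled over all libraries of a species. DESeq2 1.42.0, limma 3.58.1 on voom weights and on the deposited log2 FPKM, other scalings, no filter and left-out libraries were alternatives, and the fits were tested on simulated data. The count tables hold no gene lengths, so levels per length came from the deposited log2 FPKM.

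Named were all 8 members, Irf4, every list gene called and, in a list with no call, the gene with the smallest p. The likeness rule named 5 genes for Myc and 1 for each other member, from log2 CPM with a prior count of 2. Odc1 and Mki67 were named beyond that rule, after their values were seen. A list gene that the rule selects is not reported here. Libraries of a group differed by 37.2 to 266 in chi-square per degree of freedom, so none was a copy of another. Intervals (95%, exact Poisson) and floors (3 counts) cover counting error only.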

Additional observations from a re-analysis of the deposited data

Results flagged for a closer look

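Members whose libraries separated in opposite directions in different cells were taken up here. Separation in either direction was common, at 44.1% of all genes in splenic plasma cells, 33.5% in MPC-11 and 41.3% in MM.1S. The share of all genes that separated in opposite directions was not computed. The p-values below belong to genes picked by that same separation. Max was higher in both MPC-11 guide libraries than in both empty vector libraries and lower in both flox/- libraries than in both flox/+ libraries, a difference of log2 fold changes of 1.5 (0.59 ± 0.44 minus -0.90 ± 0.58, unadjusted p = 0.0752, edgeR adjusted p = 0.868). Mxi1 did the same, with a difference of 1.61 (0.46 ± 0.28 minus -1.15 ± 0.45, unadjusted p = 0.012, edgeR adjusted p = 0.599).

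In MM.1S, MAX was higher in both guide libraries, and its log2 fold change exceeded that of Max in splenic plasma cells by 1.21 (0.31 ± 0.24 minus -0.90 ± 0.58). MXD4 exceeded Mxd4 by 1.70 (0.91 ± 0.24 minus -0.79 ± 0.33). Both set a human line against mouse cells from separate tables, and neither difference was tested.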

How the results depend on the processing

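Of 504 values of single members under an alternative, 450 kept their direction and side of the threshold and 44 changed sign. The number of members called was 1 (MXD4) in MM.1S by DESeq2, without the filter and without empty vector library 1. Between MPC-11 and flox/+ cells it was 3, 4 by DESeq2 and 2 to 3 when 1 library was left out. Myc in splenic plasma cells and Myc and Mxd4 in MPC-11 against flox/+ cells did not change sign under any alternative run.

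Calls over all genes depended on the tool. In splenic plasma cells they were 650 by DESeq2 and 5 with the spread of all 10 mouse libraries. In MPC-11 they were 169 by DESeq2, 0 by voom, by library size alone and on log2 FPKM, 32 without the filter, 6 with the spread of all 10 mouse libraries and 1 to 37 when 1 library was left out. In MM.1S they were 366 by DESeq2, 16 by voom, 289 without the filter, 9 on log2 FPKM and 0 to 966 when 1 library was left out, the highest without empty vector library 1. Between MPC-11 and flox/+ cells they were 6385 by library size alone and 1472 to 3081 when 1 library was left out. For the difference of effects they were 196 by DESeq2, 8 without the filter and 0 to 1 when 1 library was left out.

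Replicate numbers are shared by the groups of each line, and the labels tie them to nothing further. The correlation of same-numbered deviations was -0.08 in MPC-11 and 0.09 in MM.1S. With the replicate block, 0 genes were called in MPC-11 and 208 in MM.1S, and no member was called. The MM.1S calls included 4 proliferation genes and 1 growth and metabolism gene, all lower. The flox/+ count columns carry no number, but the log2 FPKM do. There the correlation was -0.02, and limma with the replicate block, an alternative chosen after seeing the data, called 384 genes, no member (Myc 1.35, adjusted p = 0.301) and 2 proliferation genes, both higher.

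Log2 fold changes that changed sign are given with the cause not tested. By library size alone, in splenic plasma cells Mxd3 was 0.75, Mxd4 0.11, Mnt 0.23 and Mlx 0.18, Myc in MPC-11 was -0.09, and in MPC-11 against flox/+ cells Max was 1.96 and Mlx 1.36. For the difference of effects, library size alone gave -0.97 for Mxd1, -0.51 for Mxd3, -0.44 for Mxd4 and -0.71 for Mlx. By voom Mxd3 was 0.71 in splenic plasma cells and -0.41 for the difference. MNT was -0.69 on log2 FPKM, and Max in MPC-11 against flox/+ cells 0.02 without the filter.

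When 1 library was left out, splenic Mxd3 ran from -3.51 to 7.23 (values fitted against a library without a count) and Mnt from -1.36 to 1.2. In MPC-11, Myc ran from -0.35 to 0.99, Mxd1 from -0.44 to 1.23, Mxd3 from -0.26 to 0.84, Mxd4 from -0.87 to 0.23 and Mlx from -0.98 to 0.38. In MM.1S, MLX ran from -0.14 to 0.11, MXI1 from -0.62 to 0.89 and MNT from -0.43 to 2.20. Against flox/+ cells, Max ran from -0.44 to 0.40, Mnt from -0.50 to 1.94 and Mlx from -1.26 to 0.17. For the difference of effects, Mxd1 ran from -0.98 to 0.76, Mxd3 from -7.38 to 3.87, Mxd4 from -0.07 to 1.03, Mnt from -0.29 to 2.14 and Mlx from -0.32 to 1.12. A lone library left in a group is assumed to vary like the other group.

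The log2 difference of the Myc to antagonist ratio was 2.00 between flox/- and flox/+ cells and 1.80 to 2.21 when 1 library was left out. With exon lengths, an alternative chosen after seeing the data, it was 2.16.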

Other observations

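Pvt1, a long noncoding RNA gene beside Myc, was looked at after the values were seen. It was 119 and 158 CPM in MPC-11 with the guide and 150.1 and 103 CPM with the empty vector. Pvt1 was 5.21 and 4.40 CPM in flox/- and 4.79 and 3.52 CPM in flox/+, 2.27 CPM in marrow plasma cells and 0.863 CPM in follicular B cells. It was higher in MPC-11 with the empty vector than in flox/+ plasma cells (log2 fold change 4.94 ± 0.48, edgeR adjusted p = 0.000595, 2 of 2 libraries). Follicular B cells had the most Myc of the primary libraries and the least Pvt1. In MM.1S, PVT1 was 18.2 and 24.0 CPM with the guide and 8.36 and 10.3 CPM with the empty vector (1.18 ± 0.34, edgeR adjusted p = 0.34).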
